A study of Mus musculus with 12 samples.

Results

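The 10 adipocyte genes Adipoq, Lep, Cfd, Retn, Plin1, Cidec, Fabp4, Lpl, Lipe and Pparg were read by symbol from the table of 18514 genes of mouse colorectal tissue, and all 10 were found and passed the filter on low counts that left 15484 genes. The tissue came from male C57BL/6 mice bought at 4 weeks of age, in 4 groups with 3 libraries each. Ctrl mice were untreated and did not swim. Ctrl_Swim mice swam only. Model mice were injected with the carcinogen azoxymethane (AOM, 10 mg/kg) and afterwards drank 2% dextran sodium sulfate (DSS), which inflames the colon, in 3 cycles of 7 days, each followed by 2 weeks of water. Model_Swim mice received the same AOM/DSS and swam. Swimming began at 20 min per day, rose to 90 min per day, and went on for 2 months before AOM and until the end, while mice that did not swim were placed in shallow water. During resection the fat adhering to the colon was taken off. The labels number the libraries without stating that each came from a separate mouse, so the p-values below measure the spread between libraries.

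Adipocytes are the cells of fat tissue, which keep triglyceride in a large lipid droplet and release fatty acids from it on demand. They also secrete hormones and other proteins, called adipokines, into the blood. The fat nearest to the colon lies in the mesentery, and the nuclear receptor encoded by Pparg switches on much of the adipocyte programme. Pparg is also a gene of colonocytes, and Fabp4 and Lpl are also used by capillary endothelium and macrophages, so that the 10 genes are not equally selective for fat. In bulk tissue, fewer adipocytes and less RNA per adipocyte cannot be told apart.

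The 250 bases before the transcription start, from RefSeq on GRCm38.p6 and written along the gene's strand, were at hand for 8 of the 10 genes (12 windows in all), and 4 windows are printed here because Adipoq, Plin1 and Lep varied together over the libraries and Cfd was the one of the 10 with the lowest p in the AOM/DSS main effect. They lie at chr16:23146286-23146535 (Adipoq, plus strand), chr7:79732777-79733026 (Plin1, minus strand), chr6:29059971-29060220 (Lep, plus strand) and chr10:79890603-79890852 (Cfd, plus strand). Capitals mark matches on either strand to CCAAT, TTGCNNAA (letters of the C/EBP type, read as TTNNGCAA on the other strand), AGGTCA (the core hexamer of nuclear receptor sites) or TATAAA.
Adipoq: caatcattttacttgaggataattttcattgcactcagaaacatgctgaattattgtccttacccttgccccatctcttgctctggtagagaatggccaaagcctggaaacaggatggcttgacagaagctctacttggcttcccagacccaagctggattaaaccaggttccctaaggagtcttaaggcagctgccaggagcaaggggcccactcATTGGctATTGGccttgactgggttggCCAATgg
Plin1: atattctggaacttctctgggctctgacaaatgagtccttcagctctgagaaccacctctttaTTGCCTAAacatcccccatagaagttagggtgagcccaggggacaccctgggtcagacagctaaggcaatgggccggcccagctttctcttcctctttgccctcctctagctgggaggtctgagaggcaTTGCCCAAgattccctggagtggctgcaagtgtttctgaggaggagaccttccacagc
Lep: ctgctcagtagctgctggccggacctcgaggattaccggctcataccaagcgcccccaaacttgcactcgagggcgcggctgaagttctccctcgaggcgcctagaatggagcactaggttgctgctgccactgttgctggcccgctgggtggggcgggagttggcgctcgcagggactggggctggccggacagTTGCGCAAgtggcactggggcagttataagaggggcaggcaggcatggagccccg
Cfd: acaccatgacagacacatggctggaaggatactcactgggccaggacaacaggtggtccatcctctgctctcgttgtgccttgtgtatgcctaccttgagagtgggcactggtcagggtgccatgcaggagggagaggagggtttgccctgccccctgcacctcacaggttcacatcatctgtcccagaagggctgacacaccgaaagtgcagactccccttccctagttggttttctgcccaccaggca
The Adipoq window held 3 matches to CCAAT, at 34 to 30, 27 to 23 and 7 to 3 bases before the start. The Plin1 window held 2 matches to TTGCNNAA, at 187 to 180 and 58 to 51 bases before the start, and the Lep window held this motif on both strands at 55 to 48 bases before it. The letters TTGCNNAA were found in 4 of the 12 windows, of Lep, Plin1, Cidec and Pparg, and in 8.51% of 17387 windows of genes in the table. CCAAT was found in 3 of the 12 windows, of Adipoq and Pparg, against 34.7% of all windows. In windows of Pparg only, AGGTCA was found in 2 of the 12 (12.4% of all windows) and TATAAA in 1 (9.08%). In the windows of Cfd, Retn and Lipe none of these letters occurred. A match is a description of the letters and not a binding site.

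Per length of transcript, the most used of the 10 genes were Fabp4, Pparg and Lpl, which other cells also use, and Cfd. Over the 12 libraries the mean FPKM, a level scaled to transcript length, was 63.8 for Fabp4, a carrier of fatty acids in the cytoplasm, 31.9 for Pparg, 27.3 for Cfd, which encodes complement factor D (adipsin), and 17.0 for Lpl, the lipoprotein lipase that frees fatty acids from circulating triglyceride. Next came Adipoq (8.14), Cidec (7.25), Lipe (5.50), Retn (2.63), Plin1 (2.32) and Lep (0.351), and neighbours in this order overlapped in their ranges over the libraries. The highest library exceeded the lowest most for Plin1, by 88.1-fold in CPM (the count relative to the TMM-scaled library total), followed by Retn (43.0-fold), Adipoq (40.7-fold), Cfd (24.5-fold) and Lep (11.1-fold). Cidec (6.51-fold), Fabp4 (5.48-fold), Lpl (4.50-fold), Pparg (2.73-fold) and Lipe (2.70-fold) varied less. The SD of log2 CPM over the libraries had a median of 0.998 over the 10 genes against 0.224 over all genes tested, and all 10 lay above that median. The lowest libraries rest on few reads, with 4 counts for Plin1 and Lep and 16 for Adipoq in Ctrl 1. The first place of Plin1 rests on Ctrl 1, since its next lowest value was 0.638 CPM, in Ctrl_Swim 3. The lowest value of Retn was in Ctrl_Swim 2, at 5 counts.

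Model 3 had the highest CPM of 7 of the 10 genes, and Model_Swim 1 was among the top pair of libraries for 8. Ctrl 1 and Model 2 each had the lowest value of 4 genes. The libraries of 1 group thus lay far apart. Total counts per library were between 17256953 and 19451055, so that 3 counts, the limit that a count of 0 allows, equal at most 0.174 CPM, which covers counting error only. Model 1 and Model 3 also held RNA of pancreatic acinar cells, whose 13 marker genes summed to 47745 and 23054 CPM there, to 176 CPM in Model 2, to 188 to 207 CPM in Ctrl, to 91.1 to 164 CPM in Ctrl_Swim and to 96.8 to 98.6 CPM in Model_Swim. Ctrb1, the most abundant of them, reached 7837 CPM in Model and at most 0.440 CPM in Model_Swim, and Cela2a was at 0 in a Model_Swim library. The summed CPM of the adipocyte genes was 197 in Model 1, 165 in Model 2 and 621 in Model 3. Markers of squamous epithelium summed to 6.83 CPM in Model 3 and 1776 CPM in Model 2. They summed to 6.05 to 10.8 CPM in Ctrl, 5.43 to 779 CPM in Ctrl_Swim and 121 to 917 CPM in Model_Swim. The part of these other tissues in the results below was not tested.

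**Figure D1:**
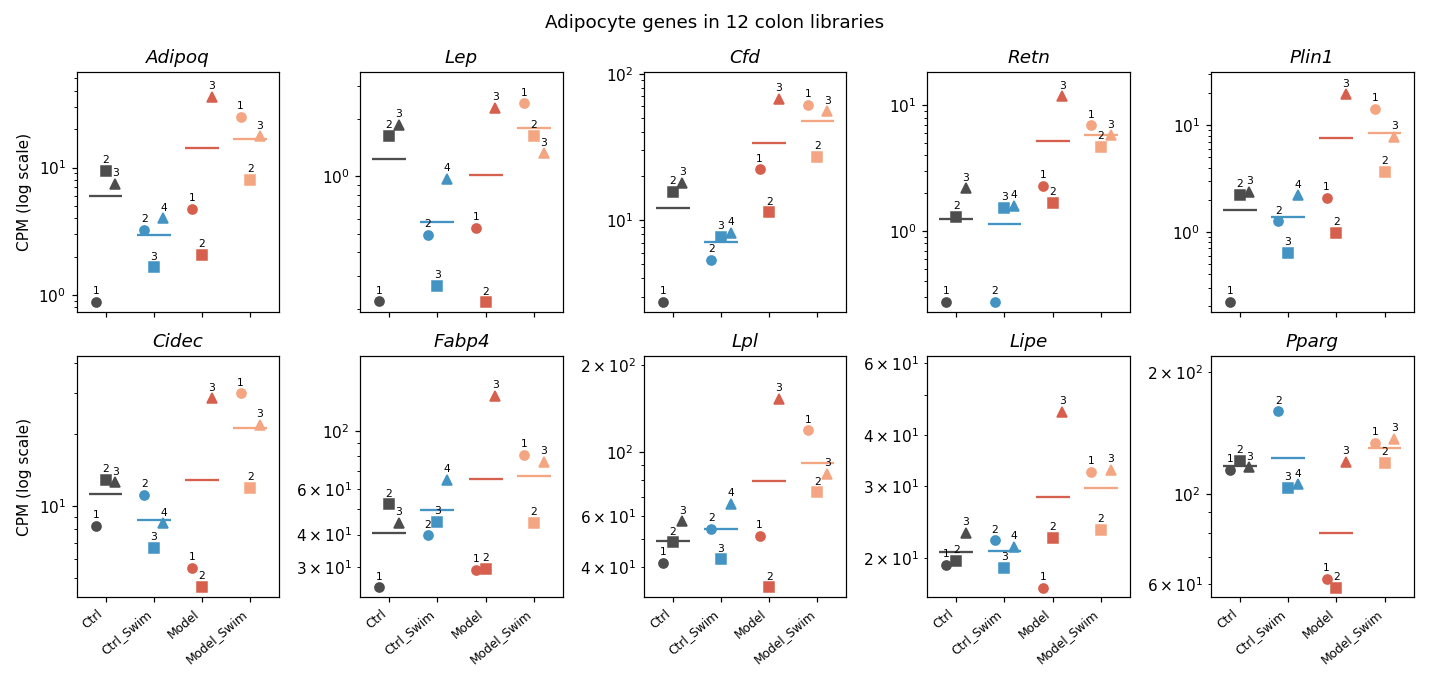
CPM (log axis) of each of the 10 adipocyte genes in the 12 libraries, by group; points carry the library's number and lines are group means. Model 3 lies far above Model 1 and Model 2 in most panels, and Ctrl 1 far below Ctrl 2 and Ctrl 3 for Adipoq, Lep, Cfd, Retn and Plin1.

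Among the secreted proteins, Adipoq encodes adiponectin, a hormone made almost only by adipocytes that raises insulin sensitivity. It lies on chromosome 16 from 23146536 to 23157968. Its CPM was 0.883, 9.43 and 7.48 in Ctrl 1 to 3, 3.23, 1.65 and 3.99 in Ctrl_Swim 2 to 4, 4.77, 2.07 and 35.9 in Model 1 to 3, and 25.0, 7.99 and 17.5 in Model_Swim 1 to 3. All Model_Swim libraries exceeded all Ctrl_Swim libraries, whereas Model 1 and Model 2 lay within the range of Ctrl and Model 3 above it. Lep encodes leptin, the hormone by which fat stores signal to the brain, and lies on chromosome 6 from 29060221 to 29073876. Lep was at 0.221, 1.64 and 1.87 CPM in Ctrl, 0.493, 0.266 and 0.971 in Ctrl_Swim, 0.536, 0.218 and 2.30 in Model, and 2.42, 1.63 and 1.33 in Model_Swim, in the same order of libraries. With 4 to 44 counts per library, Lep had the lowest mean level of the 10 genes, and its 3 Model_Swim libraries again lay above the 3 Ctrl_Swim libraries.

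Cfd cleaves factor B in the alternative pathway of complement and is abundant in fat, and the gene lies on chromosome 10 from 79890853 to 79892655. Its CPM was 2.76, 15.6 and 18.0 in Ctrl, 5.37, 7.66 and 8.23 in Ctrl_Swim, 22.3, 11.3 and 67.5 in Model, and 61.4, 27.0 and 55.3 in Model_Swim. Only Model 2 among the 6 AOM/DSS libraries fell within the range of the 6 libraries of untreated mice. Retn encodes resistin, which in mice is secreted by adipocytes, and lies on chromosome 8 from 3655770 to 3659818. Retn was at 0.276, 1.31 and 2.20 CPM in Ctrl, 0.274, 1.54 and 1.58 in Ctrl_Swim, 2.31, 1.69 and 11.8 in Model, and 6.93, 4.68 and 5.78 in Model_Swim. As with Cfd, Model 2 was the AOM/DSS library that overlapped the untreated ones.

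Of the lipid droplet proteins, Plin1 encodes perilipin 1, which coats the droplet and guards it from lipases. The gene lies on chromosome 7 from 79721164 to 79732904. Its CPM was 0.221, 2.24 and 2.36 in Ctrl, 1.26, 0.638 and 2.20 in Ctrl_Swim, 2.09, 0.981 and 19.5 in Model, and 14.3, 3.64 and 7.74 in Model_Swim. Cidec, on chromosome 6 from 113424634 to 113435760, encodes a protein that enlarges droplets by passing lipid from droplet to droplet. Cidec was at 8.28, 12.9 and 12.6 CPM in Ctrl, 11.2, 6.70 and 8.48 in Ctrl_Swim, 5.52, 4.58 and 28.4 in Model, and 29.8, 11.9 and 22.0 in Model_Swim. Model 1 and Model 2 were below every other library for Cidec, while Model 3 was above all libraries except Model_Swim 1.

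The genes of fatty acid handling varied less between the libraries than those of the secreted proteins and Plin1. Fabp4, on chromosome 3 from 10204342 to 10208616, lay between 25.1 and 52.2 CPM in Ctrl, 39.7 and 64.9 in Ctrl_Swim, 29.2 and 137 in Model, and 44.3 and 81.3 in Model_Swim. Lpl, on chromosome 8 from 68880555 to 68906932, lay between 41.3 and 57.6 CPM in Ctrl, 42.5 and 66.0 in Ctrl_Swim, 33.9 and 153 in Model, and 72.5 and 119 in Model_Swim. Lipe, on chromosome 7 from 25379527 to 25398486, encodes hormone-sensitive lipase, which releases fatty acids from the droplet. It lay between 19.3 and 23.0 CPM in Ctrl, 18.9 and 22.1 in Ctrl_Swim, 16.9 and 45.5 in Model, and 23.4 and 32.9 in Model_Swim. In all 3 genes the highest library was Model 3.

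Pparg, on chromosome 6 from 115360879 to 115490404, stood apart from the others. Its CPM was 115, 121 and 116 in Ctrl, 159.9, 103 and 106 in Ctrl_Swim, 61.7, 58.6 and 120.2 in Model, and 134, 119 and 137 in Model_Swim. Model 1 and Model 2 were the lowest of all libraries, as they were for Cidec. The summed CPM of 9 colonocyte markers was lowest in these same libraries, at 6134 in Model 1 and 8121 in Model 2, against 13257 in Model 3, 15538.5 to 16717.5 in Ctrl, 13210.4 to 18424 in Ctrl_Swim and 14966 to 15774 in Model_Swim. Car1, an abundant carbonic anhydrase of colonocytes, lay between 277 and 4731 CPM in Model against at least 5675 CPM in the other groups. The markers did not all fall. Epcam was at 1282 to 1473 CPM in Model and overlapped Ctrl_Swim (1251 to 1532 CPM). Between Model and Ctrl the 9 markers had a median log2 fold change of -0.46, and 2 of them were positive. The part of colonocytes in the Pparg and Cidec values was not tested.

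To ask what AOM/DSS changed in mice that did not swim, Model was compared with Ctrl. None of the 10 genes was called in this comparison, in which 7.43% of all genes tested were called by edgeR's quasi-likelihood test at an adjusted p under 0.05 and a fold over 2 or under 0.5. At an unadjusted p under 0.05 there were 2 of the 10, Retn and Pparg, against 45.2% of all genes, and in none did every Model library exceed every Ctrl library, against 21.0% of all genes. Of the log2 fold changes, 8 were positive, with a median of 0.69 against 0.01 over all genes. Plin1 differed by a log2 fold change of 2.22 (95% interval -0.12 to 4.55, adjusted p = 0.127), Retn by 2.05 (0.20 to 3.90, adjusted p = 0.0812), Cfd by 1.47 (-0.03 to 2.97, adjusted p = 0.116) and Adipoq by 1.26 (-0.86 to 3.38, adjusted p = 0.334). Pparg differed by -0.55 (-1.10 to -0.00, adjusted p = 0.109). The positive values of Plin1, Adipoq, Cidec, Fabp4, Lpl and Lipe rested on Model 3, and so did the positive median. Without Model 3, only Retn (0.67) and Cfd (0.48) stayed positive. The log2 fold change was -0.05 for Plin1, -0.78 for Adipoq, -1.69 for Lep, -0.46 for Fabp4, -0.19 for Lpl and -0.065 for Lipe. Pparg was then at -0.95 (adjusted p = 0.00158), past the adjusted p but not the fold threshold, and Cidec was called lower in Model (-1.14, adjusted p = 0.0341), as were 10.7% of all genes in either direction. Model 3 was the highest Model library for both genes, so the choice to leave it out follows the values tested. Without Model 1 or Model 2 instead, Pparg was at -0.38 and -0.35 (adjusted p = 0.276 and 0.317). Cidec was at 0.55 and 0.60 (adjusted p = 0.499 and 0.462). By DESeq2, Retn was called, against 8.44% of all genes.

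The same treatment was compared among swimming mice, as Model_Swim against Ctrl_Swim. In 8 of the 10 genes, all but Fabp4 and Pparg, every Model_Swim library lay above every Ctrl_Swim library, against 15.9% of all genes tested. None was called with the 4 groups in the fit, where 1.00% of all genes were called, and 4 of the 10 had an unadjusted p under 0.05 (Adipoq, Cfd, Retn and Plin1), against 22.4% of all genes. All 10 log2 fold changes were positive, with a median of 1.45 against -0.01 over all genes. Cfd had 47.9 ± 18.3 CPM in Model_Swim against 7.09 ± 1.51 CPM in Ctrl_Swim (SD, n = 3 each). Its log2 fold change of 2.75 (95% interval 1.18 to 4.33) had an adjusted p of 0.0504, just over the threshold. The log2 fold change was 2.64 for Plin1 (standard error 1.08, adjusted p = 0.180), 2.51 for Adipoq (0.28 to 4.74, adjusted p = 0.176), 2.34 for Retn (0.48 to 4.20, adjusted p = 0.133), 1.62 for Lep (-0.28 to 3.52, adjusted p = 0.302) and 1.27 for Cidec (-0.05 to 2.59, adjusted p = 0.241). In this comparison 5.18% of all genes passed the adjusted p at any fold. So did 5 of 8 macrophage markers, all higher (median log2 fold change 0.68), with sums of 212 to 263 CPM in Ctrl_Swim and 359 to 415 CPM in Model_Swim, and 2 of 8 fibroblast markers, Col1a1 and Col1a2 (median 0.37), with sums of 976 to 1149.9 CPM and 1359.7 to 1667 CPM. No marker of the other 8 lists passed it, with medians of 0.85 for mesothelium, 1.76 for squamous epithelium, 0.11 for colonocytes, -0.13 for endothelium, -0.07 for smooth muscle, -0.39 for B cells, -0.53 for skeletal muscle and -2.18 for acinar cells. The part of these cell types in the difference was not tested. The calls of the adipocyte genes differed between fits. With only the 6 libraries compared in the fit, Adipoq, Cfd, Retn and Plin1 were called, against 1.81% of all genes. By DESeq2, Cfd and Retn were called, against 1.85%. Without Model 3, which is in neither group but enters the shared spread, Adipoq, Cfd, Retn, Plin1 and Cidec were called, against 1.75%.

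**Figure D2:**
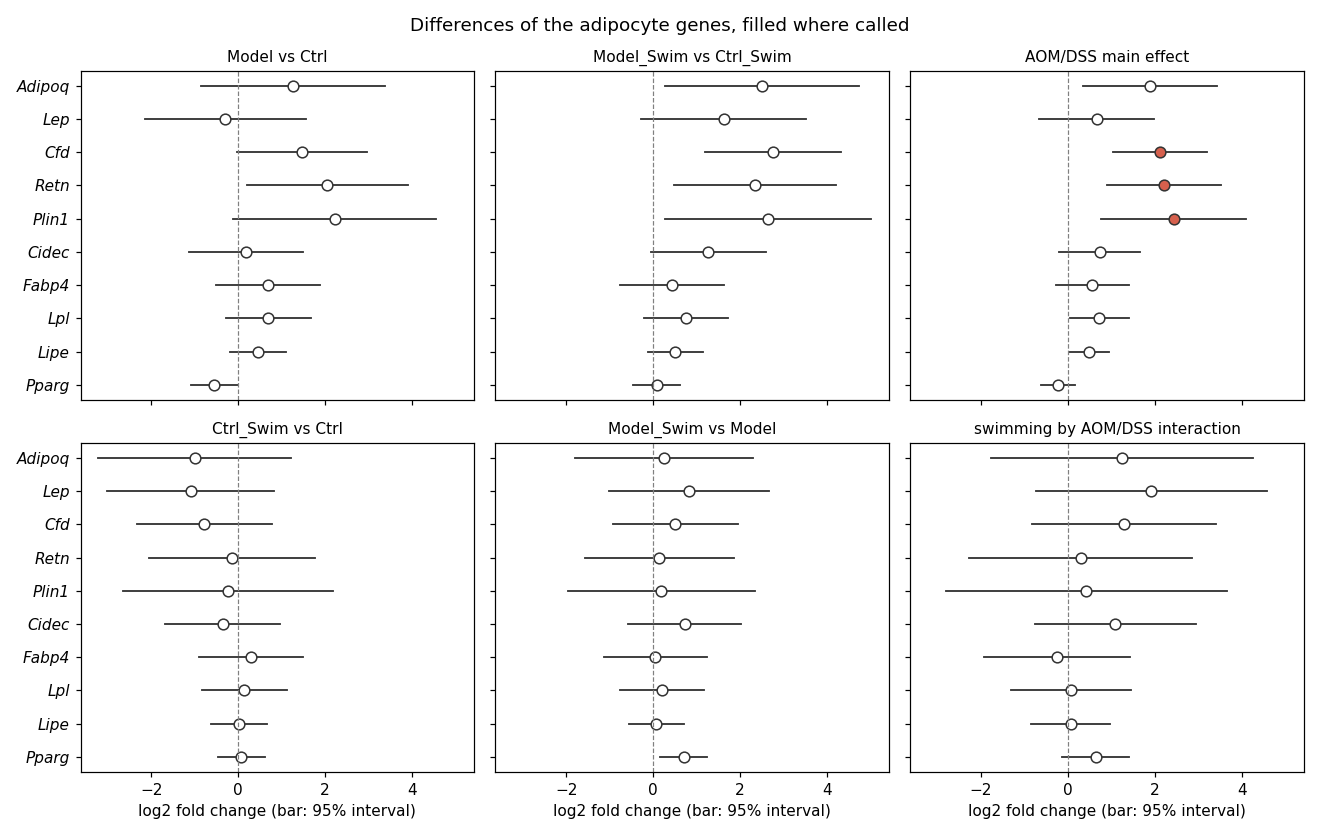
log2 fold changes (points) of the 10 adipocyte genes with 95% intervals (bars) in 6 comparisons from edgeR's fit of the 4 groups; filled points passed the adjusted p and fold thresholds. Filled points are Cfd, Retn and Plin1 in the AOM/DSS main effect, and the intervals are widest for Plin1, Adipoq, Retn and Lep.

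Averaged over swimming, the 6 AOM/DSS libraries were compared with the 6 others. Cfd, Retn and Plin1 were higher in AOM/DSS mice and passed the thresholds, 3 of the 10 genes against 4.29% of all genes tested. The log2 fold change of Cfd was 2.11 (standard error 0.49, 95% interval 1.03 to 3.20, adjusted p = 0.00807), that of Retn 2.20 (standard error 0.60, 0.88 to 3.51, adjusted p = 0.0165) and that of Plin1 2.43 (standard error 0.76, 0.77 to 4.09, adjusted p = 0.0298). Adipoq differed by 1.88 (0.35 to 3.42, adjusted p = 0.0581), Lpl by 0.72 (0.03 to 1.41, adjusted p = 0.0974) and Lipe by 0.48 (0.03 to 0.93, adjusted p = 0.0932), so that 6 of the 10 had an unadjusted p under 0.05, against 44.8% of all genes. The difference was 0.73 for Cidec (adjusted p = 0.205), 0.66 for Lep (adjusted p = 0.422), 0.56 for Fabp4 (adjusted p = 0.283) and -0.23 for Pparg (adjusted p = 0.324). By DESeq2, Adipoq was called too (1.89, adjusted p = 0.0361). Leaving out Model 3 gave 0.86 for Adipoq (adjusted p = 0.210), 0.28 for Lpl, 0.22 for Lipe and 0.06 for Cidec. It gave -0.44 for Pparg (adjusted p = 0.00887), short of the fold threshold. Leaving out Model 1 or Model 2 instead gave -0.15 and -0.14 for Pparg (adjusted p = 0.517 and 0.555). Without Model 3 the values of Cfd, Retn and Plin1 were 1.62, 1.51 and 1.29 (adjusted p = 0.00980, 0.0287 and 0.0872), and without both libraries that held acinar RNA, Model 1 and Model 3, they were 1.31, 1.36 and 0.95 (adjusted p = 0.0424, 0.0760 and 0.288). Markers of other cell types are given for the same comparison, in which 33.4% of all genes tested passed the adjusted p at any fold. Of 8 macrophage markers, 7 were higher and 1 lower by the adjusted p, with a median log2 fold change of 0.66, and they summed to 212 to 263 CPM in the untreated libraries and 359 to 445 CPM in the AOM/DSS libraries. Of 8 fibroblast markers, 6 were higher by it, with a median of 0.60 and sums of 964 to 1149.9 CPM against 1359.7 to 1833 CPM. Of 9 endothelial markers, 3 were higher by it, with a median of 0.10 and overlapping sums of 192 to 334 CPM against 259.6 to 288 CPM. Of 7 mesothelial markers, Msln and Bnc1 rose and Muc16 fell by both thresholds, with a median of 0.79 and overlapping sums of 18.8 to 50.9 CPM against 16.0 to 33.1 CPM. Of 9 squamous markers, 4 rose, with a median of 4.60 and the overlapping sums given above. Of 12 acinar markers 1 rose (median 3.38), and of 9 colonocyte markers 1 was higher and 2 lower by the adjusted p (median -0.16). None of 8 markers each of smooth muscle (median -0.09), B cells (0.55) and skeletal muscle (1.48) passed the adjusted p. The part of these cell types in the result was not tested. This main effect shares its libraries with the comparisons above.

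Swimming itself was compared in untreated mice (Ctrl_Swim against Ctrl) and in AOM/DSS mice (Model_Swim against Model). In untreated mice none of the 10 genes was called, against 0.168% of all genes tested, none had an unadjusted p under 0.05, against 17.6%, and none lay higher in every Ctrl_Swim library, against 12.6%. Lep differed by -1.09 (95% interval -3.01 to 0.82, adjusted p = 0.536), Adipoq by -1.002 (-3.21 to 1.21, adjusted p = 0.635) and Cfd by -0.78 (-2.33 to 0.78, adjusted p = 0.594). These intervals reach beyond a 2-fold decrease for all 3 genes and beyond a 2-fold increase for Adipoq. Ctrl 1 lay far below Ctrl 2 and Ctrl 3. Leaving out 1 library gave -1.69 to -0.66 for Lep, -1.50 to -0.48 for Adipoq and -1.23 (without Ctrl 1) to -0.36 (without Ctrl 3) for Cfd, with no call. The libraries also fall into 2 sets by the level of acinar genes. Ctrl, Model and Ctrl_Swim 3 were in the higher set and Model_Swim, Ctrl_Swim 2 and Ctrl_Swim 4 in the lower. Within a set only Ctrl_Swim 3 could thus be compared with Ctrl. With a term for these sets, which rests on Ctrl_Swim 3, the values were -2.19 for Lep, -1.84 for Adipoq and -0.66 for Cfd.

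In AOM/DSS mice none of the 10 genes was called, against 0.0710% of all genes, and none lay higher in every Model_Swim library, against 8.32%. Pparg was the gene with an unadjusted p under 0.05, against 13.6% of all genes, and it averaged 80.2 ± 34.7 CPM in Model against 130.04 ± 9.34 in Model_Swim (SD, n = 3 each). Its log2 fold change was 0.70 (0.15 to 1.25, adjusted p = 0.272). Cidec differed by 0.73 (-0.57 to 2.03, adjusted p = 0.632) and Lpl by 0.21 (-0.76 to 1.18, adjusted p = 0.875). Without Model 3 these became 1.12 for Pparg (adjusted p = 0.00304), 2.08 for Cidec (adjusted p = 0.00983) and 1.11 for Lpl (adjusted p = 0.0334), all 3 called, against 2.09% of all genes. Model 3 was the highest Model library for all 3 genes, so the choice to leave it out follows the values tested. Without Model 1 or Model 2 instead, Pparg was at 0.54 and 0.51 (adjusted p = 0.372 and 0.466). Cidec was then at 0.37 and 0.32 (adjusted p = 0.816 and 0.871) and Lpl at -0.02 and -0.16 (adjusted p = 0.986 and 0.912), none called. All Model libraries were in the set with the higher acinar level and all Model_Swim libraries in the other, so that in this comparison the sets and swimming cannot be told apart.

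The swimming effect was then tested for a difference between AOM/DSS and untreated mice. None of the 10 genes was called, as was 0% of all genes tested, and none had an unadjusted p under 0.05, against 19.0% of all genes. The difference between the swimming effects was largest for Lep (1.91, adjusted p = 0.417), Cfd (1.28, adjusted p = 0.502) and Adipoq (1.25, adjusted p = 0.662). It was 1.09 for Cidec (-0.77 to 2.94, adjusted p = 0.518) and 0.63 for Pparg (-0.14 to 1.40, adjusted p = 0.351). Without Model 3 it was 2.42 for Cidec (adjusted p = 0.0233) and 1.03 for Pparg (adjusted p = 0.0258), both called, against 1.58% of all genes. Lep was then at 3.31, Adipoq at 3.29, Plin1 at 2.69 and Cfd at 2.27, none of them called. This exclusion, too, follows the values tested. Without Model 1 or Model 2 instead, Cidec was at 0.71 and 0.67 (adjusted p = 0.640 and 0.714). Pparg was at 0.46 and 0.43 (adjusted p = 0.463 and 0.562), and neither gene was called. Averaged over AOM/DSS, swimming gave no call among the 10 genes, against 0.174% of all genes, and no unadjusted p under 0.05, against 12.9%. Pparg came closest, at 0.38 (-0.00 to 0.77, adjusted p = 0.390). Without Model 3 Pparg was at 0.60 (adjusted p = 0.0112), past the adjusted p but not the fold threshold. Without Model 1 or Model 2 it was at 0.31 and 0.30 (adjusted p = 0.487 and 0.464).

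**Figure D3:**
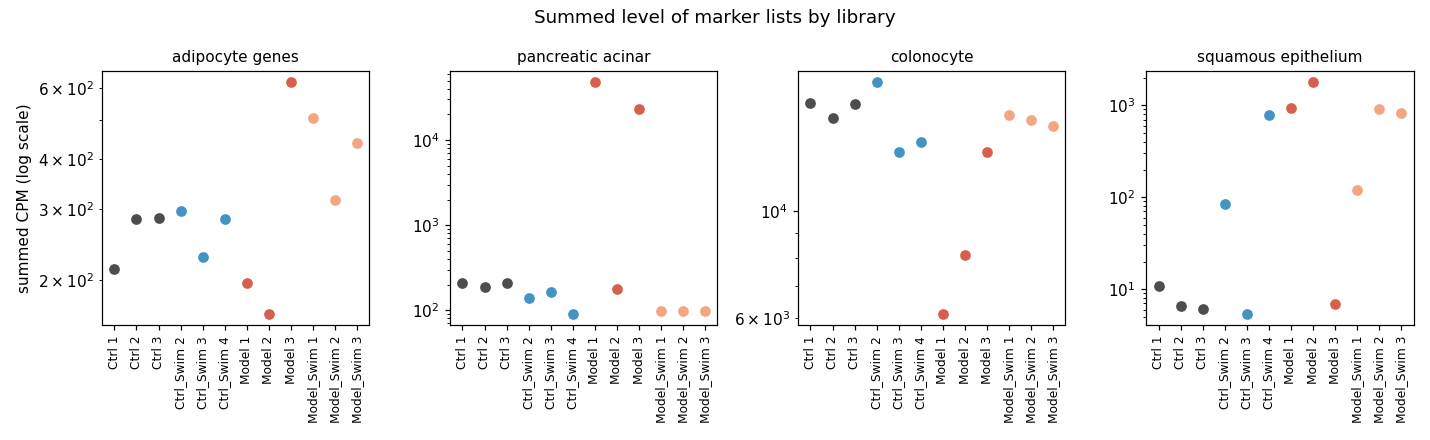
Summed CPM (log axis) of the 10 adipocyte genes and of markers of pancreatic acinar cells, colonocytes and squamous epithelium in each library, coloured by group. The adipocyte sum is highest in Model 3 (621 CPM) and lowest in Model 2 (165 CPM), and the acinar sum is high in Model 1 and Model 3.

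Across the 12 libraries most of the genes followed Adipoq. As a description, Pearson's r of log2 CPM with Adipoq was 0.98 for Plin1, the highest of 14002 genes compared, 0.93 for Cfd, 0.91 for Lep, 0.88 for Lpl, 0.86 for Cidec, 0.85 for Fabp4, 0.84 for Retn and 0.80 for Lipe. Pparg stood apart at 0.36, in place 1925. Outside the 10 genes the closest were Cyp2e1 (0.94), Thrsp (0.91), Ttc7b (0.89), Zfpm2 (0.87), Adrb3 (0.87), Plin4 (0.87), Adap2 (0.86), Tusc5 (0.86), Rsph1 (0.85) and Aplp1 (0.85). Thrsp, a regulator of lipid synthesis, Adrb3, the beta-3 adrenergic receptor, the droplet protein Plin4 and Tusc5 are themselves adipocyte genes. The points share libraries and group differences.

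Relative to Adipoq in the same library, Plin1 and Lep were not constant, a comparison chosen after the values were seen and not tested. On the FPKM scale Plin1 was 14.9%, 14.1% and 18.9% of Adipoq in Ctrl 1 to 3 and between 23.1% and 34.0% in the other 9 libraries. The ratio in Ctrl 1 rests on 4 counts of Plin1. Lep was 6.51% to 9.38% of Adipoq in Ctrl and 5.72% to 9.14% in Ctrl_Swim. It was 2.40% to 4.22% in Model and 2.83% to 7.66% in Model_Swim, with Model_Swim 2 as the AOM/DSS library that overlapped the untreated ones. Few counts of Lep limit these ratios, with 4 in Ctrl 1 and Model 2, 5 in Ctrl_Swim 3, 9 in Ctrl_Swim 2 and 10 in Model 1. The ratio of Cfd ranged from 220% to 727%, with overlap between all groups. That of Retn ranged from 8.11% to 89.6%, both in Ctrl_Swim, and the groups overlapped except Ctrl (13.3% to 29.9%) and Model (31.3% to 78.1%). The highest Ctrl ratio, in Ctrl 1, rests on 5 counts of Retn and 16 of Adipoq. The other genes were not constant either. Cidec ranged from 52.3% to 620% of Adipoq, Lipe from 34.5% to 594% and Lpl from 129% to 1424%. Fabp4 ranged from 456% to 3982% and Pparg from 117% to 4551%. Each of these was highest in Ctrl 1, where Adipoq was lowest.

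**Figure D4:**
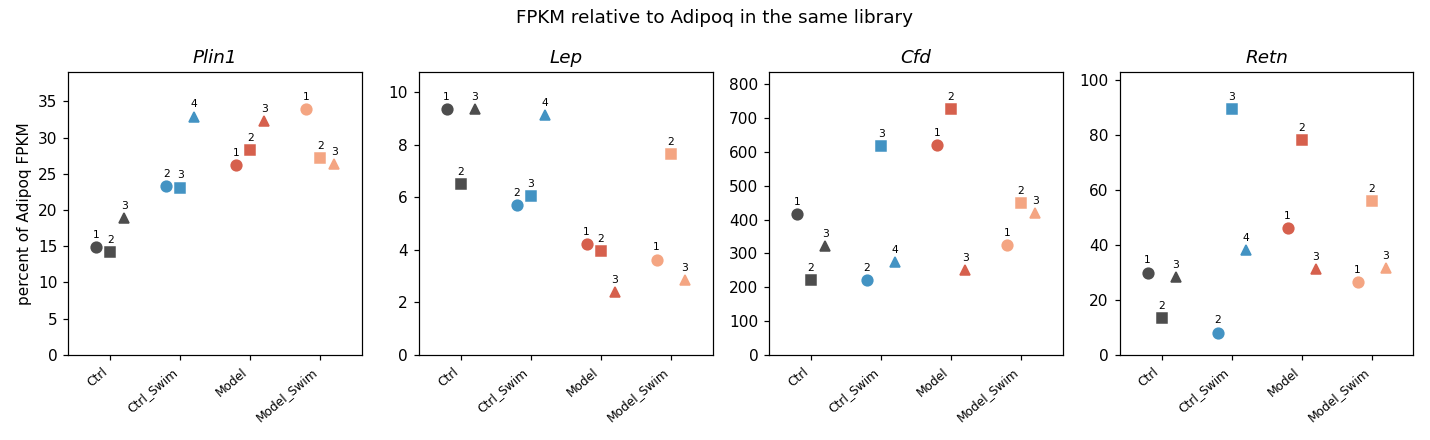
FPKM of Plin1, Lep, Cfd and Retn as a percent of Adipoq FPKM in the same library, by group, with library numbers. Plin1 is below 19% in all 3 Ctrl libraries and above 23% in all others, and Lep is below 5% in 5 of the 6 AOM/DSS libraries.

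Other genes of fat moved in part with these. Of 15 further adipocyte-selective genes, all tested, 3 rose in the AOM/DSS main effect by both thresholds, against 4.29% of all genes called, with a median log2 fold change of 0.77 against 0.73 for the 10 genes. Thrsp rose by 1.81 (adjusted p = 0.0262), Car3, a carbonic anhydrase of fat and muscle, by 1.41 (adjusted p = 0.0352) and Tshr, the thyrotropin receptor, by 1.27 (adjusted p = 0.0134). Thrsp spanned 2.40 to 20.8 CPM in Model and overlapped Ctrl (1.27 to 6.16). Car3 spanned 48.8 to 158 CPM in Model and overlapped Ctrl_Swim (15.4 to 83.2). Tshr did not overlap, at up to 0.660 CPM in untreated mice and at least 0.817 CPM in AOM/DSS mice. Values without Model 3 are not given for these genes. Lgals12, a galectin of fat cells, was at 48.4 ± 1.92 CPM in Ctrl, 30.4 ± 1.11 in Ctrl_Swim, 28.9 ± 3.02 in Model and 22.8 ± 2.69 in Model_Swim (SD, n = 3 each), and its log2 fold change of -0.58 passed the adjusted p (0.000253) but not the fold threshold. Between Model_Swim and Ctrl_Swim none of the 15 was called, against 1.00% of all genes in that comparison.

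In the 22 genes of lipid storage and release, 2 rose in the AOM/DSS main effect by both thresholds, against 4.29% of all genes called. By the adjusted p alone 3 were higher and 3 lower, or 6 of 22 against 33.4% of all genes, and the median log2 fold change was near 0 (-0.00). Scd1, the desaturase that makes oleate, was at 95.9 ± 18.4 CPM in Ctrl, 101 ± 50.2 in Ctrl_Swim, 467 ± 379 in Model and 415 ± 105 in Model_Swim (SD, n = 3 each). It rose by 2.16 (adjusted p = 0.00140). Angptl4, an inhibitor of the lipase encoded by Lpl, rose by 1.14 (adjusted p = 0.0324). Of 12 regulators of adipocyte formation none was called, and 4 passed the adjusted p, against the same 33.4% of all genes. Cebpb (0.49, adjusted p = 0.00619) and Cebpd (0.68, adjusted p = 0.00531) were higher by the adjusted p, and Ppargc1a (-0.41, adjusted p = 0.00188) and Rxra (-0.32, adjusted p = 0.00524), the partner receptor of Pparg, were lower by it. None of 6 tested brown fat genes was called, and Cox7a1 was lower by the adjusted p (-0.67, adjusted p = 0.000515). None of 4 adipokine receptor genes was called. Cdh13, which binds adiponectin, differed by 0.47 (adjusted p = 0.0194) and Lepr, the leptin receptor, by -0.49 (adjusted p = 0.0247).

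The partners of factor D in the alternative complement pathway were looked at beside Cfd. C3, the central component, was at 265 ± 62.3 CPM in Ctrl, 219 ± 66.6 in Ctrl_Swim, 590.3 ± 95.4 in Model and 501 ± 133 in Model_Swim (SD, n = 3 each) and rose in the AOM/DSS main effect by 1.17 (adjusted p = 0.000936). Cfp, which stabilises the convertase of the pathway (0.69, adjusted p = 0.00149), passed the adjusted p but not the fold threshold, and Cfb differed by 0.01 (adjusted p = 0.938).

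The paralogues of the adipocyte genes did not share their direction. Of 12 tested, 2 rose and 3 fell in the AOM/DSS main effect, against 4.29% of all genes called in either direction. Fabp5 rose by 1.73 (adjusted p = 0.0303) and Retnlg by 1.85 (adjusted p = 0.0364), whereas Fabp6, the bile acid binder of the ileum, fell by 3.52 on the log2 scale (adjusted p = 0.000711) and Fabp2, the fatty acid carrier of enterocytes, fell by 1.05 (adjusted p = 0.00492). Retnlb, the resistin-like protein of goblet cells, was at 1999 ± 406 CPM in Ctrl, 354 ± 127 in Ctrl_Swim, 341 ± 180 in Model and 386 ± 199 in Model_Swim (SD, n = 3 each). Retnlb fell in Model against Ctrl (log2 fold change -2.55, adjusted p = 0.00388) and in Ctrl_Swim against Ctrl (-2.50, adjusted p = 0.0465), which share the Ctrl libraries. In Ctrl_Swim against Ctrl, Retn differed by -0.15 (adjusted p = 0.949).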

How the data were processed

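RNA of mouse colorectal tissue was sequenced in 12 libraries. The authors used Trimmomatic for trimming, HISAT2 for alignment to GRCm38.p6 and HTSeq-count for counting, and deposited the raw counts of 18514 genes. They also deposited FPKM values, for which the study's methods name Cufflinks. In genes with 20 or more counts in every library, each gene's ratio of FPKM to count per library total was constant within 1.36e-06 percent, so the deposited FPKM are there a rescaling of the deposited counts. Tool versions and the annotation release are not given in the sources used here. The library kit keeps the strand, and the strand setting of the counting is not given there either. In each gene the deposited FPKM was 0 exactly where the count was 0.

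In R 4.3.3, the counts were scaled by TMM and tested with edgeR 4.0.16 (filterByExpr with a minimum count of 10, quasi-likelihood test, a fit of the 4 groups, 7 comparisons, Benjamini-Hochberg adjustment over all genes tested). A gene was called at an adjusted p under 0.05 and a fold over 2 or under 0.5. CPM values are TMM-scaled. Correlations use log2 CPM with a prior count of 2. The code was tested on simulated data.

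The adipocyte genes, the other gene lists and the rules were chosen with earlier results of these data known. The text names all 10 genes, from each pathway list up to 4 genes with the lowest p in a comparison, the paralogues, the most abundant genes of a marker list and the 10 other genes closest to Adipoq (mean CPM of at least 1, without gene models and receptor segments). Of the lists, Ucp1 was not matched to a row, and Trarg1 was matched as Tusc5 through RefSeq synonyms. A gene of the complement list is not reported here. Positions and promoter windows come from RefSeq on GRCm38.p6.

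The alternatives tried were edgeR with the size factors of DESeq2, DESeq2 1.42.0 itself (the tool of the study), no filter, a fit of only the groups compared, a block for the replicate number, and the adjusted p without the fold threshold. Further ones were limma 3.58.1 on log2(FPKM + 1) where the mean FPKM was 0.5 or more, limma on log2(FPKM + 0.1) and limma without that filter, a term for a pair of library sets that differ in the level of acinar genes, and 12 fits that each left out 1 library. A fit without Model 1 and Model 3 was added after seeing the data.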

Additional observations from a re-analysis of the deposited data

How the results depend on the processing

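Of 39 single-gene differences tried under up to 23 alternatives, 26 kept their direction in all of them. In the AOM/DSS main effect, Cfd was called in all 22 alternatives and Retn in 21, whereas Plin1 was called in 10 and lost in 12. The count of genes called there was 2 to 4 when 1 library was left out, and 1 (Cfd) without Model 1 and Model 3. Between Model and Ctrl it was 0 to 1 when 1 library was left out, 1 by DESeq2 (Retn) and 1 without Model 1 and Model 3 (Pparg). Between Model_Swim and Model it was 0 to 3 when 1 library was left out and 3 without Model 1 and Model 3. In the interaction it was 0 to 2 when 1 library was left out and 2 without Model 1 and Model 3. DESeq2 and limma called 0 of the 10 genes in these last 2 comparisons, between Ctrl_Swim and Ctrl and in the swimming main effect. Between Model_Swim and Ctrl_Swim it was 0 to 5 when 1 library was left out, 1 with DESeq2's size factors, 2 by DESeq2, 4 with only the groups compared and 5 without Model 1 and Model 3. It was 1 (Cfd) without Ctrl 1, Model 1 or Model 2. The cause was not tested.

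Between Model and Ctrl, leaving out 1 library gave log2 fold changes of -0.78 to 1.78 for Adipoq, -1.69 to 0.19 for Lep, -0.051 to 2.74 for Plin1, -1.14 to 0.60 for Cidec, -0.46 to 1.04 for Fabp4, -0.19 to 1.06 for Lpl and -0.065 to 0.73 for Lipe. Without Model 1 and Model 3 they were -1.54 for Adipoq, -0.12 for Cfd, -0.73 for Plin1, -1.32 for Cidec, -0.48 for Fabp4 and -0.55 for Lpl. Cidec was at -0.10 by limma on log2(FPKM + 1), with or without the filter, and -0.18 on log2(FPKM + 0.1). Between Model_Swim and Model, Lpl ranged from -0.16 to 1.11 with 1 library left out and was -0.29 with the term for library sets. Between Model_Swim and Ctrl_Swim, Pparg ranged from -0.034 to 0.30 and was -0.029 with that term. In the AOM/DSS main effect Lep ranged from -0.035 to 0.97 and Fabp4 from -0.012 to 0.74, and without Model 1 and Model 3 the values were -0.44 for Lep, -0.028 for Cidec and -0.030 for Fabp4.

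Same-numbered libraries of different groups did not correlate above 0.1 more often than others. This held for 4 of 15 same-numbered pairs (r from -0.26 to 0.56) and 13 of 39 other pairs (-0.56 to 0.45). The highest r was that of a same-numbered pair, Ctrl_Swim 3 and Model 3. With the replicate number as a block, 2 genes (Cfd and Retn) were called in the AOM/DSS main effect, 0 in the other comparisons, and Cidec between Model and Ctrl was at -0.042. The term for library sets is estimated from Ctrl_Swim alone, the group that both sets share, with Ctrl_Swim 3 as its only library in the higher set, so these values rest on that library. Low counts limit Lep, Plin1 and Retn in the lowest libraries, at 4, 4 and 5 counts.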
